A study of Mus musculus with 8 samples.

Results

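The genes described here are 5 CDK inhibitor genes and the 3 genes of the retinoblastoma family, 8 genes of 24243 named genes in the female table and of 23906 in the male table. They were taken by symbol: Cdkn2a, Cdkn2b, Cdkn2c and Cdkn2d (the INK4 inhibitors), Cdkn1b (a CIP/KIP inhibitor), and Rb1, Rbl1 and Rbl2 (the pocket proteins pRB, p107 and p130). The measurements were RNA-Seq of germ cells sorted by an Oct4-EGFP transgene from E15.5 mouse gonads (C57BL/6 background per the labels, a mix of C57BL/6, 129/Sv and ICR per the methods), with 2 control and 2 Snf5 CKO libraries from each sex (4 groups). Snf5 (Smarcb1) is the gene of a SWI/SNF subunit, a complex that moves nucleosomes. The CKO embryos were Snf5 fx/Δ with TNAP-Cre, a Cre knocked into the alkaline phosphatase gene Alpl that is active in primordial germ cells, and exon 1 was the floxed part. The controls were not of a single genotype: they were Snf5 fx/+ or Snf5 fx/Δ embryos without Cre, or Snf5 fx/+ embryos with TNAP-Cre, so some of them also carried 1 deleted allele. Recombination in this model is incomplete, and the germ cells of several embryos were pooled in most libraries, while male Snf5 CKO replicate 2 came from a single embryo.

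INK4 proteins bind CDK4 and CDK6 and keep D-type cyclins from activating them, whereas p27, the product of Cdkn1b, inhibits cyclin E and cyclin A kinases as well. Active kinases phosphorylate the pocket proteins, which otherwise hold E2F factors and recruit corepressors at the promoters of cell cycle genes, and p107 and p130 do so as part of the DREAM complex. In the fetal testis germ cells leave the cell cycle and become quiescent prospermatogonia, while in the fetal ovary they enter meiotic prophase, so the same regulators sit on different paths in the 2 sexes. The comparison asked whether the transcripts of these brakes differed between Snf5 CKO and control germ cells in each sex.

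The start regions of 5 INK4 promoters and of Rbl1 are shown because each INK4 gene was called in at least 1 sex, and because Cdkn2a has separate starts for its 2 products and Rbl1 holds a match to an E2F word. Sequences are from RefSeq (GRCm38.p6, the same coordinates as mm10), from 250 bases before to 50 bases after each start, read 5′ to 3′ on the strand of the gene, with capitals for a match to an E2F word.
Cdkn2a distal start (p19Arf), chr4:89294570-89294869, minus strand: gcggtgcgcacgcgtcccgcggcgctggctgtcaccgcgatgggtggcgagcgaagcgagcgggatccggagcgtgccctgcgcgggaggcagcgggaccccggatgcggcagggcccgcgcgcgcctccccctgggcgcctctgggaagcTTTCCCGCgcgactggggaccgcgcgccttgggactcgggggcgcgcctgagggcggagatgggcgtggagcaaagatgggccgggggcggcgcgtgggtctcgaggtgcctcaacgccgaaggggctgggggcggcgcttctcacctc
Cdkn2a proximal start (p16Ink4a), chr4:89282143-89282442, minus strand: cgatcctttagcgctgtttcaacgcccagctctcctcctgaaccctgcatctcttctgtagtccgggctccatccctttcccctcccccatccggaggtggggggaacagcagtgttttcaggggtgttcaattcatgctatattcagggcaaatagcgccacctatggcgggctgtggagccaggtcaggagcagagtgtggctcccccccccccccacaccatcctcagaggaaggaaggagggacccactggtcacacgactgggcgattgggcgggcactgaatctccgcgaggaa
Cdkn2b, chr4:89310983-89311282, minus strand: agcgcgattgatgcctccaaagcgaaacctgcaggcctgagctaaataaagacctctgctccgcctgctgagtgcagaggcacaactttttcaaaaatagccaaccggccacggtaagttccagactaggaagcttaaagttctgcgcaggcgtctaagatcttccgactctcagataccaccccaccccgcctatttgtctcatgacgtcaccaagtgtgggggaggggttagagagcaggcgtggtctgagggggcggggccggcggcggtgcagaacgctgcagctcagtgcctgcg
Cdkn2c, chr4:109666707-109667006, minus strand: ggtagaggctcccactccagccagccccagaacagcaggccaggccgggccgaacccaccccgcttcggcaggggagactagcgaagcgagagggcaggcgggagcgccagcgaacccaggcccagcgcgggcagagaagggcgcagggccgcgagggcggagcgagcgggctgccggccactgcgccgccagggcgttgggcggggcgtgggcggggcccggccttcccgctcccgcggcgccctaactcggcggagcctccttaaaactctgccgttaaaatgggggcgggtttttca
Cdkn2d, chr9:21291160-21291459, minus strand: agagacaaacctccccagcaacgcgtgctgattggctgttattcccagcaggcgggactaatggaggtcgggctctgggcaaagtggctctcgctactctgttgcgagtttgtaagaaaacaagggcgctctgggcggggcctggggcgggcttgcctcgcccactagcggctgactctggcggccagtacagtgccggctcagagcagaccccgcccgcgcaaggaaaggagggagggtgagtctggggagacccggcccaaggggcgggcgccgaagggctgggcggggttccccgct
Rbl1, chr2:157204485-157204784, minus strand: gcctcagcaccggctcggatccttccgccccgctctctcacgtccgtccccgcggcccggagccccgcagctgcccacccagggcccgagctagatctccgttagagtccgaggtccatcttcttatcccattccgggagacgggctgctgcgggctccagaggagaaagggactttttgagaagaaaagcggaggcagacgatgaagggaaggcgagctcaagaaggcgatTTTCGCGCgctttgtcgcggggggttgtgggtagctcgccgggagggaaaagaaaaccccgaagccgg
RefSeq gave 9 promoter sequences for 7 of the 8 genes, with no entry for Rb1. The E2F words searched on both strands were TTTCCCGC, TTTCGCGC, TTTGCCGC and TTTGGCGC, which can share letters with a GC box (GGGCGG). A match was found at -99 from the distal Cdkn2a start and at -18 from the Rbl1 start, and in 2.26% of 32851 mouse promoters of the same length. GC boxes were in 35.7% and CCAAT in 37.4% of all promoters. Cdkn2c has 2 entries, of which the upstream one is shown, with 4 GC boxes, and the other (chr4:109665323-109665622) held 0. Cdkn2d held 5 GC boxes and the distal Cdkn2a start 3, while the proximal Cdkn2a start and Cdkn2b each held 1. The distal Cdkn2a region was 77.0% G and C with 45 CG dinucleotides, against 60.3% and 12 at the proximal start and a median of 52.7% and 7 over all promoters. These are descriptions of the letters only.

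Values are FPKM, fragment counts scaled to transcript length and library size, and each sex has its own table, so levels were not compared between the sexes. A gene was called changed when its adjusted p in limma was under 0.05 and its log2 fold change of FPKM + 1 was at least 1 in size. Folds and percentages given for mean FPKM leave out the added 1, so they differ from the log2 fold changes. The summed FPKM of the libraries ran from 673741 to 1554757, unnamed loci took 5.46% to 42.1% of it, and fragment numbers were not used here, so depth is unknown. Smarcb1 was at 23.4 and 22.3 FPKM in female controls and 4.24 and 2.47 in female CKO libraries, and at 141 and 167 against 8.73 and 10.1 in males. The germ cell marker list (Ddx4, Dazl and 6 others) had none at 0 in any library. It summed to 5885 to 5937 FPKM in female controls and 1867 to 1966 in CKO, with 3 markers called lower and 3 higher. In males it summed to 3646 to 3998 and 2196 to 2266, with 5 called lower. In female means Sycp3 went from 2556 to 216 FPKM and Tex101 from 1525 to 187, while Pou5f1 rose from 12.7 to 314 and Dnd1 from 6.88 to 160. Nanos3, also called higher in females, reached the mean of at least 1 FPKM needed for testing only through its CKO libraries. Ddx4 and Dazl were not called in either sex, so the sum follows a few abundant genes. Markers of Sertoli cells, the somatic cells of the testis cords, summed to 87.5 to 107 FPKM in male controls and 422 to 627 in male CKO libraries. Of the 11 markers listed, 9 were tested and all 9 were called higher. Cldn11 among them reached the mean needed for testing only through its CKO libraries. In females the pre-granulosa cell list summed to 12.1 to 15.0 FPKM in controls and 32.6 to 34.8 in CKO, with 4 of 8 tested markers called higher and 1 lower, and none at 0 in any library. Leydig cell markers summed to 60.3 to 89.4 FPKM in male controls and 27.2 to 29.6 in CKO, with 3 of 6 called lower and 1 higher. The part of these marker shifts in the results below was not tested, and in bulk libraries fewer cells of a type and less RNA per cell cannot be told apart.

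All 8 genes passed the filter of a mean of at least 1 FPKM in both tables, Cdkn1b in females only through its CKO libraries. In females 4 of 8 were called: Cdkn2a and Cdkn2c were lower and Cdkn2d and Cdkn1b were higher in CKO. Over the 11642 genes tested in females 39.0% were called, 21.8% lower and 17.2% higher. In males 4 of 8 were also called, with Cdkn2a and Cdkn2b lower and Cdkn2c and Cdkn2d higher, where 31.8% of 12368 tested genes were called, 17.5% lower and 14.3% higher. The balance of directions over all genes moved with the scaling: higher genes were 44.0% of those called in females and 45.1% in males, and 52.9% and 54.5% with median-of-ratios rescaling, or 45.3% and 33.8% with a common FPKM sum. The groups did not overlap for 6 genes in females and 5 in males, against 81.5% and 74.4% of all tested genes. The median log2 fold change of the 8 genes was -0.28 in females and 0.22 in males, beside -0.14 and -0.07 over all tested genes. For 2 libraries against 2, the smallest p an exact permutation test allows is 0.333, so the tests rest on the spread that limma shares across genes.

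**Figure D1:**
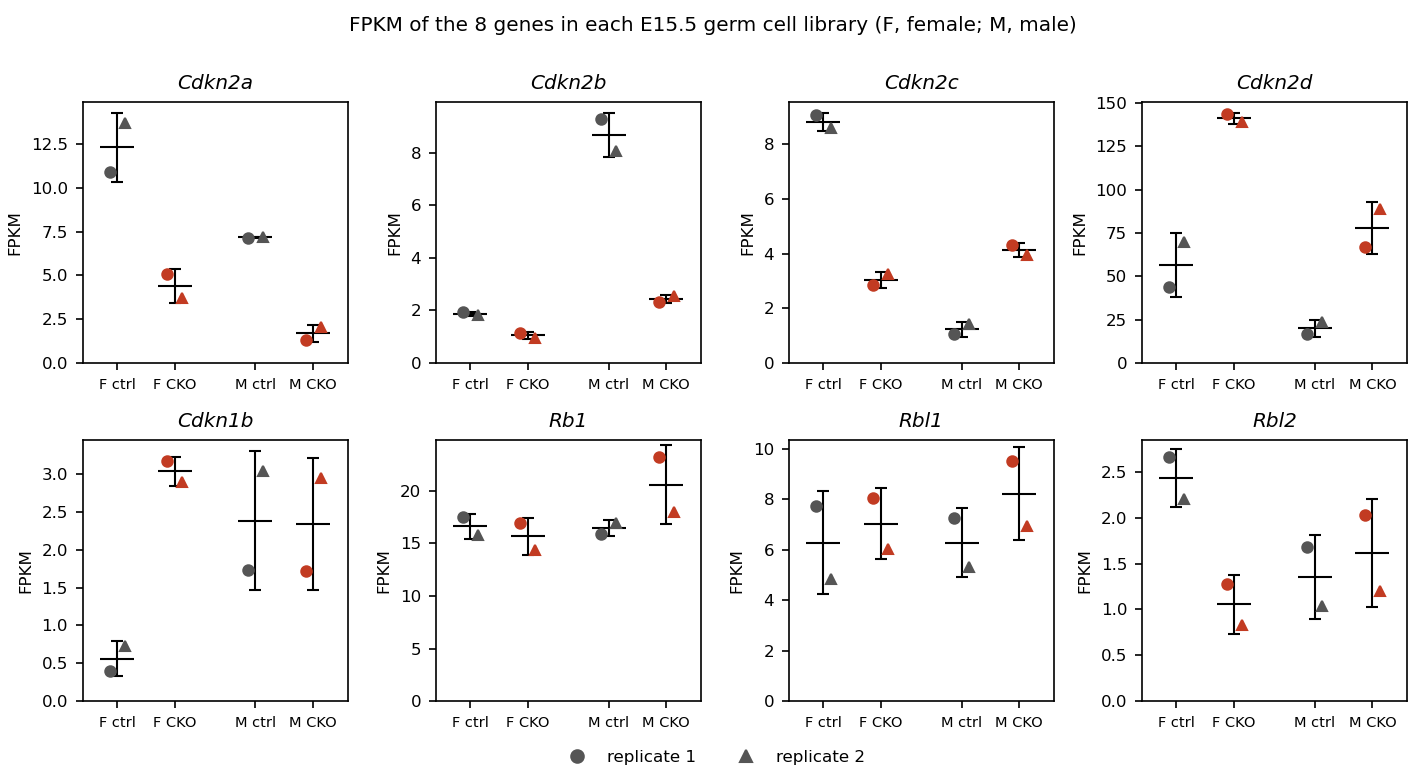
FPKM of the 8 genes (y axis, starting at 0) in each library of the 4 groups, grey for control and red for Snf5 CKO, with circles for replicate 1 and triangles for replicate 2, and with the mean and SD (n = 2) as black bars; the female and male tables were normalized separately. Cdkn2a lies lower and Cdkn2d higher in CKO in both sexes, and Cdkn2c lies lower in female CKO but higher in male CKO.

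Cdkn2a (chr4:89274473-89294619 in mm10, ENSMUSG00000044303.6 in GENCODE) encodes p16INK4A and, from the distal start and another reading frame, p19ARF, which stabilizes p53. In female controls Cdkn2a was at 10.9 and 13.7 FPKM, and in female CKO at 5.07 and 3.72. In male controls it was at 7.15 and 7.19 FPKM, and in male CKO at 1.34 and 2.04. Both CKO libraries lay below both controls in each sex. Cdkn2a fell by 1.31 (SE 0.22, adjusted p = 0.0024) in females and by 1.62 (SE 0.21, adjusted p = 0.0048) in males on the log2 scale of FPKM + 1. Its mean FPKM, without the added 1, was 64.3% and 76.4% lower. The table gives 1 value for the locus with its 2 starts, so p16 and p19ARF transcripts were not separated.

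Cdkn2b (chr4:89306289-89311032, ENSMUSG00000073802.5) encodes p15INK4B and lies 11669 bases from Cdkn2a. Male controls had 9.26 and 8.07 FPKM and male CKO libraries 2.34 and 2.56. The groups were apart, and Cdkn2b fell by 1.49 (SE 0.19, adjusted p = 0.0044), and its mean FPKM was 71.8% lower. In females the control libraries had 1.93 and 1.83 FPKM and the CKO libraries 1.15 and 0.970. These groups did not overlap either, but the log2 fold change was -0.48 (SE 0.19, 95% interval -0.93 to -0.04, adjusted p = 0.059) and was not called. Within a library the ratio of Cdkn2b to Cdkn2a FPKM was 0.13 to 0.26 in the 4 female libraries and 1.12 to 1.75 in the 4 male libraries. Both genes have the same locus coordinates in the 2 tables.

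The 2 tables hold 21 other named genes within 500000 bases of this pair, among them a cluster of interferon genes that are nearly all listed at 0. Mtap, a methionine salvage enzyme gene and the tested neighbour in both sexes, rose beside the pair, from 1.69 and 1.68 FPKM in female controls to 18.4 and 18.4 in CKO (log2 fold change 2.85, adjusted p = 0.00011). In males Mtap rose from 6.31 and 5.67 to 23.5 and 21.7 FPKM (1.76, adjusted p = 0.0029). The locus named Mir31 was tested in females only, where it fell from 3.53 and 2.89 to 0.0609 and 0.0746 FPKM (-1.97, adjusted p = 0.00030). It passed the filter there only through its control libraries, and in males it was below the filter. Both neighbours were chosen for mention after their values were seen.

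Cdkn2c (chr4:109660876-109666756 in the female table and chr4:109660806-109666780 in the male table, ENSMUSG00000028551.14) encodes p18INK4C. Of the genes called in both sexes it was the one called lower in females and higher in males. Female controls had 9.06 and 8.58 FPKM and female CKO libraries 2.85 and 3.25. Male controls had 1.05 and 1.43 FPKM and male CKO libraries 4.32 and 3.94. The CKO libraries were thus both lower than the controls in females and both higher in males. Cdkn2c fell by 1.28 (SE 0.19, adjusted p = 0.0013) in females and rose by 1.20 (SE 0.19, adjusted p = 0.0077) in males, 3.33-fold in mean FPKM.

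Cdkn2d (chr9:21288464-21291423 in the female table, ENSMUSG00000096472.2) encodes p19INK4D and had the highest mean FPKM of the 8 genes in every group. It was at 43.7 and 69.7 FPKM in female controls and 143 and 139 in female CKO libraries. Male controls had 16.6 and 23.6 FPKM and male CKO libraries 67.1 and 88.7. No control reached a CKO library in either sex. Cdkn2d rose by 1.34 (SE 0.24, adjusted p = 0.0034) in females, 2.49-fold in mean FPKM, and by 1.91 (SE 0.25, adjusted p = 0.0048) in males, 3.87-fold. Its transcript models differ between the tables.

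These changes moved the makeup of INK4 transcripts toward Cdkn2d. Summed over the 4 INK4 genes, FPKM was 65.7 and 93.8 in female controls and 153 and 147 in female CKO libraries, and 34.1 and 40.3 against 75.1 and 97.2 in males. Cdkn2d made up 66.6% and 74.3% of that sum in female controls and 94.1% and 94.6% in CKO. In males its share was 48.8% and 58.6% in controls and 89.4% and 91.2% in CKO. Cdkn2a and Cdkn2b together with Cdkn2c filled the rest, and the Cdkn2b share in males went from 27.2% and 20.02% to 3.11% and 2.63%. FPKM is scaled to transcript length, but it is a level of transcript and not of inhibitor protein.

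**Figure D2:**
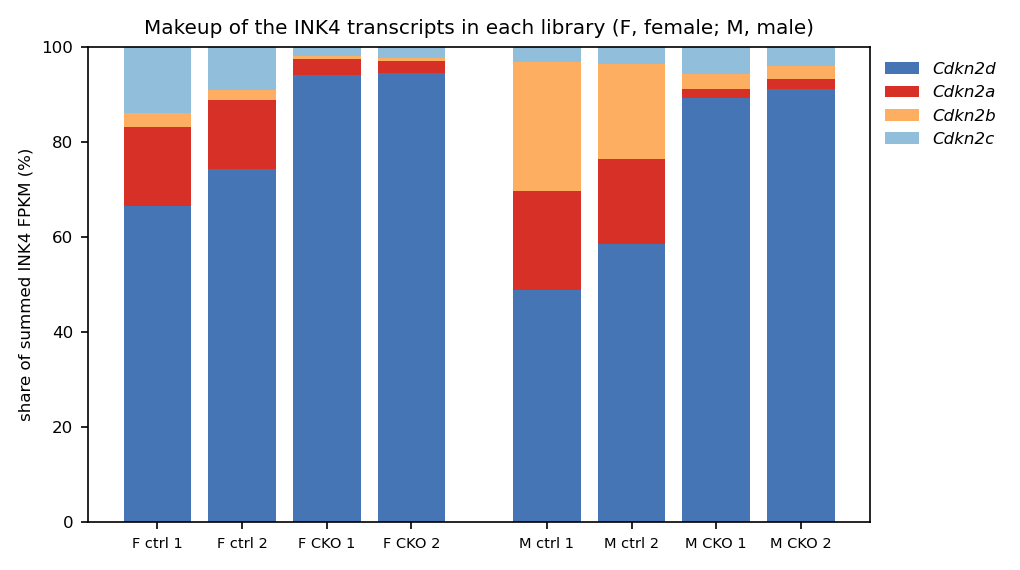
Share of the summed INK4 FPKM (y axis, percent) taken by each of the 4 INK4 genes in each of the 8 libraries, with control and Snf5 CKO replicates named below the bars. Cdkn2d takes 48.8% to 74.3% in the controls and 89.4% to 94.6% in the CKO libraries.

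Cdkn1b (chr6:134920380-134925525 in the female table, ENSMUSG00000003031.14) encodes p27KIP1, and it differed with genotype in females. Female controls had 0.397 and 0.726 FPKM and female CKO libraries 3.17 and 2.90, with no overlap. Cdkn1b rose by 1.38 (SE 0.20, adjusted p = 0.0014), 5.40-fold in mean FPKM from a control level under 1 FPKM. In males the controls had 1.73 and 3.03 FPKM and the CKO libraries 1.72 and 2.95. The male libraries split by replicate number and not by genotype, and the log2 fold change was -0.02 (SE 0.30, 95% interval -0.78 to 0.75, adjusted p = 0.96). That interval is wide enough to hold a change of either direction. The transcript models of Cdkn1b differ between the tables, with 1 start in the female table and 4 in the male table. The labels place all replicate 1 libraries on the same flow cell and lane and name replicate 2 files in another style.

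None of the pocket protein genes was called. Rb1 (chr14:73195502-73325791, ENSMUSG00000022105.6) was at 17.5 and 15.8 FPKM in female controls and 16.9 and 14.4 in female CKO libraries, a log2 fold change of -0.08 (95% interval -0.51 to 0.34, adjusted p = 0.70). In males it was at 15.9 and 16.97 FPKM in controls and 23.2 and 17.9 in CKO, where the groups did not overlap but the log2 fold change of 0.30 (95% interval -0.21 to 0.81, adjusted p = 0.27) was not called. The sign of the female value turned with median-of-ratios rescaling, to 0.08. Rb1 made up 62.7% to 72.8% of the summed pocket protein FPKM in every library. Its locus overlaps Rcbtb2 and Lpar6 on the opposite strand, and reads of a library made without strand cannot be told apart there.

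Rbl1 (chr2:157145894-157206892 in the female table, ENSMUSG00000027641.13), the p107 gene, was at 7.73 and 4.84 FPKM in female controls and 8.04 and 6.03 in CKO. In males it was at 7.25 and 5.32 FPKM in controls and 9.53 and 6.93 in CKO. Replicate 1 was above replicate 2 in all 4 groups, and the groups overlapped in both sexes. The log2 fold change was 0.16 (95% interval -0.46 to 0.78, adjusted p = 0.61) in females and 0.34 (95% interval -0.30 to 0.98, adjusted p = 0.31) in males. Within a replicate number the male CKO library was 1.31-fold and 1.30-fold its control, and with the replicate block the adjusted p was 0.036 at the same fold, still short of the fold a call needs. With that block most male genes had an adjusted p under 0.05, 5087 lower and 4330 higher of 12368 tested.

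Rbl2 (chr8:91070057-91135494 in the female table, ENSMUSG00000031666.15), the p130 gene, is the pocket protein best known from quiescent cells. Female controls had 2.66 and 2.21 FPKM and female CKO libraries 1.28 and 0.830. The groups did not overlap and the adjusted p was 0.019, but the log2 fold change of -0.74 (SE 0.21) was under the size a call needs. With a pseudocount of 0.1 it was -1.15 (adjusted p = 0.025) and would be called. In males Rbl2 was at 1.68 and 1.03 FPKM in controls and 2.03 and 1.20 in CKO, overlapping groups with a log2 fold change of 0.15 (95% interval -0.50 to 0.79, adjusted p = 0.66). The locus in the tables runs into Aktip on the opposite strand, so part of its reads may belong to that gene.

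**Figure D3:**
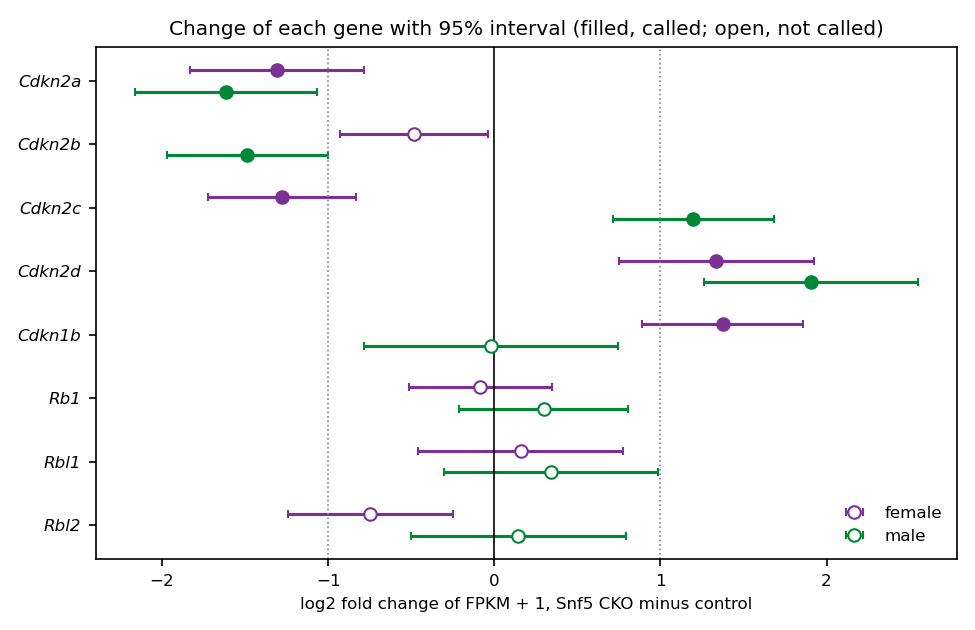
Log2 fold change of FPKM + 1, Snf5 CKO minus control (x axis), of each gene in females and males, with 95% intervals from limma; filled points were called, open points were not, and dotted lines mark a change of 1. Cdkn2c sits at -1.28 in females and 1.20 in males, and the 3 pocket protein genes are open in both sexes.

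Whether the change itself differed between the sexes was tested in a limma fit over all 8 libraries, as male change minus female change. It differed for 3 of the 8 genes, where 45.3% of 10472 tested genes did: Cdkn2c by 2.48 (95% interval 1.94 to 3.02, adjusted p = 0.00039), Cdkn2b by -1.002 (-1.51 to -0.49, adjusted p = 0.0084) and Cdkn1b by -1.39 (-2.25 to -0.54, adjusted p = 0.018). In females Cdkn1b entered this test only through its CKO libraries. Its locus had 1 transcription start in the female table and 4 in the male table, so the 2 changes rest on different transcript models. Cdkn2a and Cdkn2d changed in the same direction in both sexes, with differences of -0.31 (95% interval -1.01 to 0.40, adjusted p = 0.43) and 0.57 (-0.32 to 1.45, adjusted p = 0.26). The differences of Rb1 (0.38) and Rbl1 (0.18) did not pass (adjusted p = 0.25 and 0.73), and that of Rbl2 was 0.89 (adjusted p = 0.057). With the replicate block, 5 of the 8 genes passed, with Rbl2 (adjusted p = 0.0064) and Cdkn2d (adjusted p = 0.047) added, where 71.4% of all tested genes passed. The Cdkn1b difference was -1.24 (adjusted p = 0.066) without female control replicate 1 and -1.35 (adjusted p = 0.051) without female Snf5 CKO replicate 1. For Rbl2 it was 1.09 (adjusted p = 0.044) without male control replicate 1 and 1.12 (adjusted p = 0.035) without male Snf5 CKO replicate 2.

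Within each replicate number the called changes kept their direction, which had to follow since the groups of every called gene did not overlap. The ratios show the size in each replicate. Cdkn2a in CKO was 0.464 and 0.272 of its control in the female replicates and 0.187 and 0.284 in the male ones. For Cdkn2c the ratio was 0.314 and 0.378 in females and 4.11 and 2.76 in males. Cdkn2d was 3.28-fold and 1.99-fold its control in females and 4.03-fold and 3.75-fold in males. Cdkn1b in females was 7.98-fold and 3.99-fold, and Cdkn2b in males 0.253 and 0.317.

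In order of mean FPKM the female controls ran Cdkn2d, Rb1, Cdkn2a, Cdkn2c, Rbl1, Rbl2, Cdkn2b and Cdkn1b, with no overlap between neighbours. In female CKO libraries Cdkn1b lay beside Cdkn2c (means 3.03 and 3.05 FPKM), and these neighbours overlapped, as did Cdkn2b and Rbl2 (1.06 and 1.06). In male controls Cdkn2d (20.1) and Rb1 (16.4) led with overlapping ranges, and Cdkn2c (1.24) came last with a range that overlapped that of Rbl2 (1.35). In male CKO libraries Cdkn2c (4.13) was in the fourth place.

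By likeness over the 4 libraries of a table (root mean square difference of centred log2 values), the closest to female Cdkn2c were Gm4489 (0.0061), the merged locus of Foxp3 and Ppp1r3fos (0.019) and Cox10 (0.021). Closest to male Cdkn2b were Adcy7 (0.026), Acap3 (0.027) and L1cam (0.031). Gm4489, the Foxp3 locus, Adcy7 and L1cam were under 1 FPKM in the CKO libraries and passed the filter only through their controls. At such levels the 1 added to each FPKM weighs on the likeness. The centring takes out each gene's mean level, and with 4 points this only describes the pattern over these libraries.

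Other genes around these brakes were read from lists of the pathway. Over all tested genes 17.2% were called higher and 21.8% lower in females, and 14.3% and 17.5% in males. The counts of the lists were not tested against these shares. Of 7 CIP/KIP relatives and p27 turnover genes, 3 rose in females and 2 in males, and none fell. Cdkn1a, the p21 inhibitor that p53 induces, went from 3.55 and 5.01 FPKM to 57.6 and 75.7 in females (log2 fold change 3.68, SE 0.22) and from 5.27 and 7.94 to 51.5 and 76.4 in males (3.09, SE 0.29). Skp2, which marks p27 for degradation, rose by 2.23 in females and 1.24 in males, and its cofactor gene Cks1b rose by 2.72 in females. Of 10 tested G1 cyclins and kinases, 5 rose and 1 fell in females, and 5 rose in males. Ccnd2, among those that rose in females, passed the filter there only through its CKO libraries. Cdk4, the kinase that INK4 proteins bind, rose by 2.64 in females and its partner Ccnd3 by 2.75, while Ccne2 fell by 2.51. In males Cdk4 (0.46) and Ccnd3 (0.52) were not called. The largest male changes were those of Ccne1 (2.75), Ccnd1 (2.03) and Ccna2 (1.62), which all rose.

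Of 10 E2F and DP factors, 3 rose in females, led by E2f3 (log2 fold change 1.90), E2f6 (1.88) and E2f8 (1.63). In males 6 rose, led by E2f8 (2.38), E2f2 (1.30) and E2f5 (1.25), and Tfdp2 (-1.13) fell. Both E2f8 and E2f2 were under 1 FPKM in the male controls and passed the filter only through their CKO libraries. Of 8 MuvB core and MYB partners, which join p107 and p130 in DREAM or take over from them, 2 rose (Mybl2 2.08, Lin37 1.87) and 2 fell in females (among them Mybl1, -1.61), and in males Mybl2 alone rose (1.53). Of 8 corepressors, Arid4a rose (1.35) and Kdm5a (-1.68) and Suv39h1 (-1.49) fell in females, and Hdac1 rose (1.10) in males. Among 20 E2F target genes of S phase, 11 rose and 1 fell in females and 13 rose in males, with median log2 fold changes of 1.10 and 1.29. Tyms (2.49) and Mcm7 (2.39) led in females and Rrm2 (3.25) and Tk1 (2.76) in males. Among 18 DREAM target genes of G2 and M phase, 11 rose and 1 fell in females and 10 rose in males, with medians of 1.502 and 1.10. Aurkb rose by 4.21 in females and by 2.02 in males, and Plk1 by 2.89 and 2.34. Tfdp2 was named after its values were seen.

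Of 12 regulators of the Cdkn2a locus, 2 rose in females and 2 rose and 2 fell in males, with medians of 0.09 and 0.33. Over all tested genes 39.0% were called in females and 31.8% in males, so these counts do not stand out. Trp53, whose product p19ARF protects, went from 3.49 and 5.30 FPKM to 92.5 and 126 in females (log2 fold change 4.36) and from 27.03 and 28.3 to 176 and 197 in males (2.71). The mouse genome also holds a processed Trp53 pseudogene, and its reads were not separated here. Id1 rose by 1.28 in females, and in males Ezh2, the Polycomb methyltransferase gene, rose by 1.31, whereas Ets1, an activator of Cdkn2a, fell by 2.90.

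**Figure D4:**
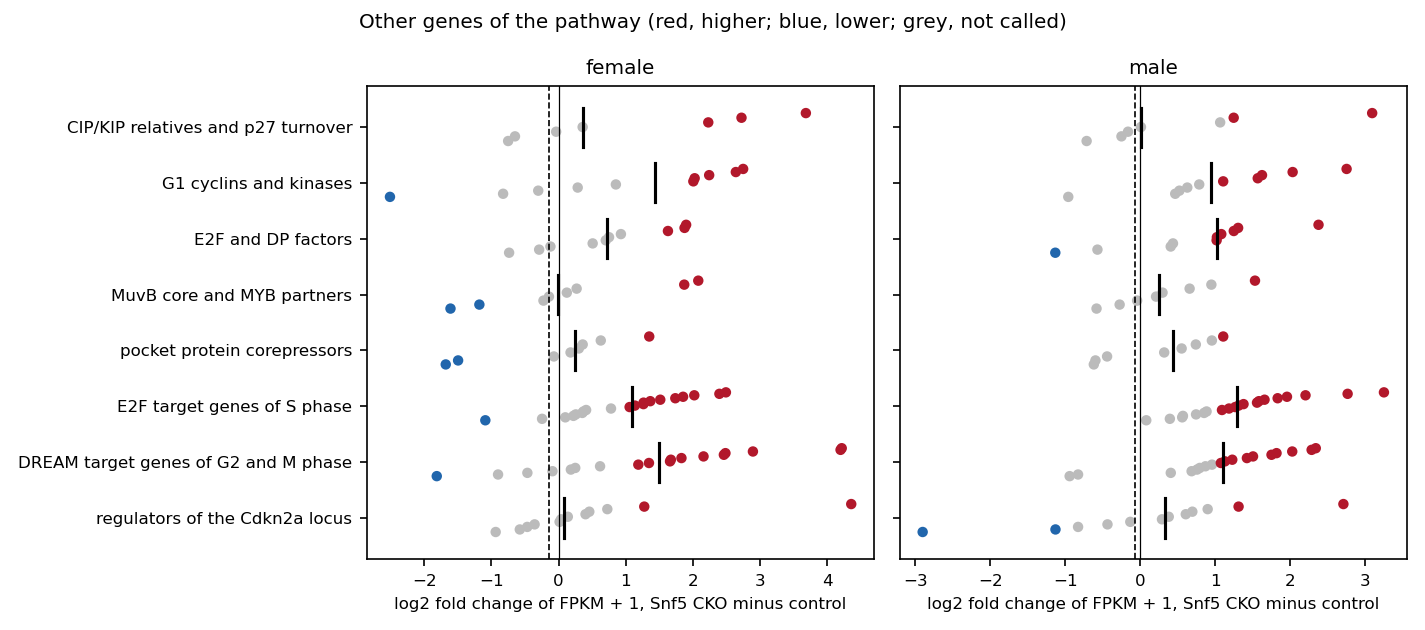
Log2 fold change of FPKM + 1, Snf5 CKO minus control (x axis), of each tested gene in 8 lists of the pathway (rows) in females and males, red for genes called higher, blue for lower and grey for not called; the short black bar is the median of the list and the dashed line the median of all tested genes. The medians of the S phase lists are 1.10 in females and 1.29 in males, and those of the G2 and M lists 1.502 and 1.10.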

How the data were processed

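RNA was measured in 8 libraries made with SMART-Seq v4 and Nextera XT, which do not keep strand. The authors aligned reads to mm10 and deposited FPKM per locus from Cufflinks for each sex in its own table (TopHat2 2.2.1 and Cuffdiff 2.1.1 per the processing notes, while the study's methods give other version numbers). Cufflinks' own bounds were wide: the upper half-width was 74.4% to 309% of the value for the 8 genes, and the lower bound was 0 in 41 of 64 values. The 4737 female and 6272 male loci with no gene name were left out. Named loci with a mean of at least 1 FPKM were fitted as log2(FPKM + 1), a scale that understates changes of low genes, with limma 3.58.1 in R 4.3.3 (lmFit, eBayes with trend), Snf5 CKO minus control within each sex, and adjusted by Benjamini-Hochberg over all genes tested. The sex difference was fitted over 8 libraries with 4 group means. Groups came from the labels, and the study's methods call the 2 libraries of a group biological duplicates. The labels give all replicate 1 libraries the same flow cell and lane, and a shared run of the replicate 2 libraries was inferred from their common file-name style. The replicate differences of CKO and control correlated at 0.50 in females and 0.59 in males over genes, so the replicate block was an alternative. Other alternatives were the pseudocount, the filter, 2 rescalings, no trend, linear FPKM and leaving out each library. All 8 genes, up to 3 called genes of each list with the largest changes, and the 3 genes most like 1 gene in each sex were named. Other genes were named where a limit or a comparison needed them. The scripts were tested on simulated data. The 8 genes and the lists were chosen with earlier results of these data known.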

Additional observations from a re-analysis of the deposited data

Results flagged for a closer look

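The change with genotype differed between the sexes, by the limma interaction test over 8 libraries, for 3 of the 8 genes, where 45.3% of all tested genes passed. As male change minus female change on the log2 scale, the difference was 2.48 for Cdkn2c (-1.28 in females, 1.20 in males), -1.002 for Cdkn2b (-0.48 and -1.49) and -1.39 for Cdkn1b (1.38 and -0.02). The Cdkn1b locus had 1 transcription start in the female table and 4 in the male table. In females Cdkn1b passed the filter only through its CKO libraries. The marker sums of somatic cells also moved with genotype, more in males for Sertoli cell markers, and their part was not tested.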

How the results depend on the processing

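The counts of 2 lower and 2 higher genes in each sex stayed at 2 and 2 in every fit that left out a library, and the count of genes whose change differed between the sexes ran from 2 to 4. Without the filter, 1 gene was lower and 1 higher in females, where Cdkn2a (-1.31, adjusted p = 0.054) and Cdkn2d (1.34, adjusted p = 0.083) passed no longer. When a mean of 5 FPKM was required, the counts were 1 higher in females, 1 lower and 1 higher in males, and 0 for the sex difference (limma, main count 3), since the filter left out the other genes. With the replicate block 5 genes differed between the sexes, beside 71.4% of all tested genes, and the block changed no call within a sex. The Cdkn2b difference was -1.17 (adjusted p = 0.068) with a common FPKM sum, and the Cdkn1b difference lost its call without the filter (-1.39, adjusted p = 0.064). Values that changed sign were never called: Rb1 in females (0.0801) and Cdkn1b in males (0.0948) with median-of-ratios rescaling, and the Rbl1 difference (-0.0033) with a common sum. Leaving out a library gave -0.19 to 0.0233 for Rb1 and -0.13 to 0.45 for Rbl1 in females, -0.30 to 0.26 for Cdkn1b and -0.0842 to 0.38 for Rbl2 in males, and -0.11 to 0.47 for the Rbl1 difference. A lone library was taken to vary like the other groups. Median-of-ratios rescaling moved the median of all genes by 0.16 in females and 0.15 in males, and a common sum by -0.19 in males, where 33.8% of called genes were higher against 45.1%. With median-of-ratios rescaling that share was 52.9% in females (44.0% without it) and 54.5% in males. Of 324 single-gene values under alternatives, 300 kept direction and side of the threshold. Linear FPKM was not run for the sex difference. Precision is limited by 2 libraries a group and by the wide Cufflinks bounds.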
